A study of Homo sapiens with 12 samples.

Results

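The genes described here are the long intergenic noncoding RNAs that carry a plain LINC number as their symbol. They were selected on 2 things, the symbol and a summed raw count of at least 240 over the 12 libraries, which is a mean of 20 counts per library. Of 56269 rows in the count table, 967 had such a symbol. Of these, 442 had 0 counts in every library, 419 had between 1 count and the threshold, and 106 reached it. The 106 members held 96.1% of all counts on LINC rows, and all 106 passed the filter on low counts that left 16115 genes for testing. Just inside the threshold lay LINC01348 with 240 counts, LINC01273 with 242 and LINC00623 with 243, and just outside it LINC00893 with 236, LINC01004 with 235 and LINC01002 with 233. Since total abundance chose the members, their total level is a description, and only differences between groups were tested. For 14 members, the 3 groups with fewer counts together held under 3/4 of the minimum, so the highest group helped them over it. These include LINC01132, LINC01348, LINC00632, LINC00578, LINC00565 and LINC01207, which are named below. Calls without the 14 are given with the other processing choices.

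RNA was sequenced from C4-2 cells, a descendant of the prostate cancer line LNCaP that grows without androgen. All cells were transfected for 48 h with siRNA that was either nonspecific (NSP) or directed against PXN, then kept without serum for 12 h. They then received ethanol vehicle or 2.5 nM dihydrotestosterone (DHT), the most potent natural ligand of the androgen receptor, for 24 h. PXN encodes paxillin, an adaptor protein of focal adhesions that also reaches the nucleus. The 4 groups, NSP siRNA with vehicle, NSP siRNA with DHT, PXN siRNA with vehicle and PXN siRNA with DHT, had 3 libraries each. All came from 1 cell line, and whether the PXN siRNA acts on other transcripts was not tested. Nothing in the labels says that the replicates were cultured separately, so the p-values measure only the spread between these libraries, which may be technical.

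Long intergenic noncoding RNAs are transcribed from their own promoters outside protein-coding genes, and most are capped, spliced and polyadenylated like mRNA. They are usually made at lower levels and in fewer cell types than mRNA, and many are degraded in the nucleus soon after synthesis. A LINC number is a placeholder given while no function is known, and some have since been found to encode small proteins. The androgen receptor, once bound by DHT, both activates and represses transcription in prostate epithelium, at coding and noncoding loci alike.

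Totals per library ran from 11944906 to 32040465 counts, the lowest in replicate 1 of NSP siRNA with vehicle, where 1 count equalled 0.0815 CPM (counts scaled to library size). The PXN transcript fell from 146 ± 6.65 CPM (SD, n = 3) to 13.8 ± 2.51 CPM with its siRNA in vehicle, and from 127 ± 8.55 to 11.6 ± 2.43 CPM in DHT. KLK3, TMPRSS2 and FKBP5, standard androgen-responsive genes, were higher in every DHT library than in every vehicle library of the same siRNA. All 6 luminal epithelial markers were detected, at 1053 to 57932 counts per library. Of the markers of other cell types, 0 of 4 immune, 1 of 3 endothelial (VWF, at up to 395 counts) and 2 of 5 fibroblast genes (COL1A1, at up to 1035 counts per library, and COL3A1, at up to 50) passed the filter, and no immune gene had more than 5 counts in a library. In bulk RNA, fewer cells carrying a transcript and less of it per cell cannot be told apart.

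Most members lay outside protein-coding genes, but only a minority lay clear of every other annotated gene. Of the 104 that could be placed in GENCODE 29 on GRCh38, 78 lay over no protein-coding gene on either strand and 26 lay over one. Counting annotated genes of any type, 38 lay over no other gene and 66 lay over another gene body. Of these 66, 48 had an exon over another gene's exon and 21 had an exon over a coding exon. The GENCODE type was lincRNA for 66, processed transcript for 13, antisense for 9 and protein coding for 9. RefSeq lists 11 members as protein coding, among them LINC00998 (SMIM30), LINC00493 (SMIM26) and LINC01207 (SMIM31), which name small integral membrane proteins, LINC00116 (MTLN, the mitochondrial microprotein mitoregulin) and LINC01420 (NBDY, a microprotein of the mRNA decapping complex). LINC00950 is among the 11 only as a synonym of TMEM8B, which has a row of its own in the count table. No source used here gives the strand setting of the counting, so counts of members that overlap another gene may include reads of that gene.

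Members were scarce transcripts. The median over members of the mean level was 2.54 CPM, with a range of 0.784 to 159 CPM, against a median of 27.5 CPM for tested protein-coding genes. Of the 106, 18 lay under 1 CPM and 22 over 10 CPM. The 6 highest, LINC00963, LINC00665, LINC00094, LINC01278, LINC00998 and LINC00667, held 46.8% of the members' counts. On a scale of CPM per kilobase of exon, the order changed: LINC00161 came first at 28.8, followed by LINC00998 at 22.0, LINC00493 at 17.5, LINC00665 at 16.1, LINC01420 at 13.8 and LINC00963 at 12.1, and the median over 104 placed members was 0.962. Libraries of a group scattered more for members than for coding genes, with a median coefficient of variation of 16.7% against 8.19%.

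Promoter sequences are shown for members that moved with DHT in both siRNA arms, because an androgen receptor bound to DNA recognises repeats of a short half-site, written here as AGAACA on one strand or TGTTCT on the other. RefSeq (GRCh38.p14) gave a promoter, 250 bases before to 50 bases after the start, for 89 members. The half-site stood in 15.7% of these, in 14.9% of all 27305 promoters of the table and in 8.76% of the promoters of tested protein-coding genes. It stood in 3 of the 6 available promoters of members higher with DHT in both arms, those of LINC00161, LINC00930 and LINC00960, and in 0 of the 21 of members lower in both arms. Of the promoters of the 62 other members, 11 held it (17.7%). The full palindrome, both half-sites facing each other across 3 bases, stood in 0 member promoters and in 1 of all promoters. The promoters of the members that fell were also richer in G and C, with a median of 67.7% against 49.8% for those that rose, and in CpG, with a median of 28 against 3.5 per promoter. Those of tested protein-coding genes had a median of 65.3% G and C. The part of base composition in the half-site counts was not tested. Capitals mark the half-site in the 3 rising members, and the promoters of LINC01132 and LINC00936 are shown as those of falling members without it.
LINC00161, chr21:28539068-28539367, plus strand: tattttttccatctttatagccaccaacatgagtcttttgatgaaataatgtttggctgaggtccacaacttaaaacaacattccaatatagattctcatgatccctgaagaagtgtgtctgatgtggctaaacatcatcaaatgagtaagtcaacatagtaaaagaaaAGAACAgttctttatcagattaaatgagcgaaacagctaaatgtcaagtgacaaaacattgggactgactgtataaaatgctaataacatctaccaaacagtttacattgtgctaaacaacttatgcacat
LINC00930, chr15:92572214-92572513, minus strand: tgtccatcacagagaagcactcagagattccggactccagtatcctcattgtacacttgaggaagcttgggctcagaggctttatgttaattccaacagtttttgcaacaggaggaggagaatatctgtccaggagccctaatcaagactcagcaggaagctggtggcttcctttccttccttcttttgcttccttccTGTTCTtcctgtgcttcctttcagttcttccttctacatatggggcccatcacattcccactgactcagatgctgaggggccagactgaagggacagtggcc
LINC00960, chr3:75672031-75672330, plus strand: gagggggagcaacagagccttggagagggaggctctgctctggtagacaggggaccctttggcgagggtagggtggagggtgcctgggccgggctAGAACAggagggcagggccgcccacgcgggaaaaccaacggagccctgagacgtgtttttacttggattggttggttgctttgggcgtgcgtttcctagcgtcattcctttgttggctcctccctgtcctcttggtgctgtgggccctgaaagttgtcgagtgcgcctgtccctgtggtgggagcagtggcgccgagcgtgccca
LINC01132, chr1:234723792-234724091, plus strand: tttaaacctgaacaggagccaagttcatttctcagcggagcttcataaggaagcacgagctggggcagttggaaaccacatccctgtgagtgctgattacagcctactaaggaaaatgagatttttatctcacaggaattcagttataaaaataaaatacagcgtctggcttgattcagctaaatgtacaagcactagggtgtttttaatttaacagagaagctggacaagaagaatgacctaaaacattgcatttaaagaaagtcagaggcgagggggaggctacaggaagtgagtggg
LINC00936, chr12:89708705-89709004, plus strand: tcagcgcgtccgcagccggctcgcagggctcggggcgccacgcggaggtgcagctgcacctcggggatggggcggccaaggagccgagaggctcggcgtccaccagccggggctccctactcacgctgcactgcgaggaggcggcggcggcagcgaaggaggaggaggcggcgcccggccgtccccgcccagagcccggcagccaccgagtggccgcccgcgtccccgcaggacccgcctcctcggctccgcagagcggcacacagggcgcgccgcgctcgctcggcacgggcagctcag
These letters are a description of the window: no binding was measured, and a match is not a site.

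With NSP siRNA, DHT lowered more than 3 times as many members as it raised. Of 106 members, 37 fell and 11 rose at an adjusted p under 0.05 (edgeR quasi-likelihood test, Benjamini-Hochberg adjustment over 16115 genes), where 18.9% of all tested genes fell and 21.6% rose. The members' median log2 fold change was -0.26, with 77 of 106 below 0, beside a median of -0.01 over all tested genes. Called falls of at least 2-fold were measured for 16 members and such rises for 5, where 833 and 595 of 16115 tested genes had them. The values of the groups did not overlap for 62 of the 106, where this was so for 50.4% of all tested genes. With upper-quartile scaling, all tested genes split into 2707 higher and 3896 lower, and members into 11 and 42.

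With PXN siRNA, the response had the same direction. DHT lowered 34 members and raised 8, where 17.9% of all tested genes fell and 20.1% rose. The median log2 fold change was -0.25, with 82 of 106 below 0. Called falls of at least 2-fold were measured for 10 members and such rises for 3, where 819 and 575 of 16115 tested genes had them. The groups did not overlap for 55 members, against 48.6% of all tested genes. Upper-quartile scaling gave 2262 higher and 3935 lower among all tested genes, and 5 and 40 among members. The count of rising members was 5 without replicate 1 or without replicate 2 of PXN siRNA with vehicle. The 2 arms share no libraries. In both, 27 members fell and 7 rose, 0 moved in opposite directions, and 93 of 106 had the same sign (87.7%, beside 80.7% of all tested genes). Over all 16115 tested genes, 2090 fell and 2576 rose in both arms, and 7 moved in opposite directions, so opposite calls were rare everywhere.

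**Figure D1:**
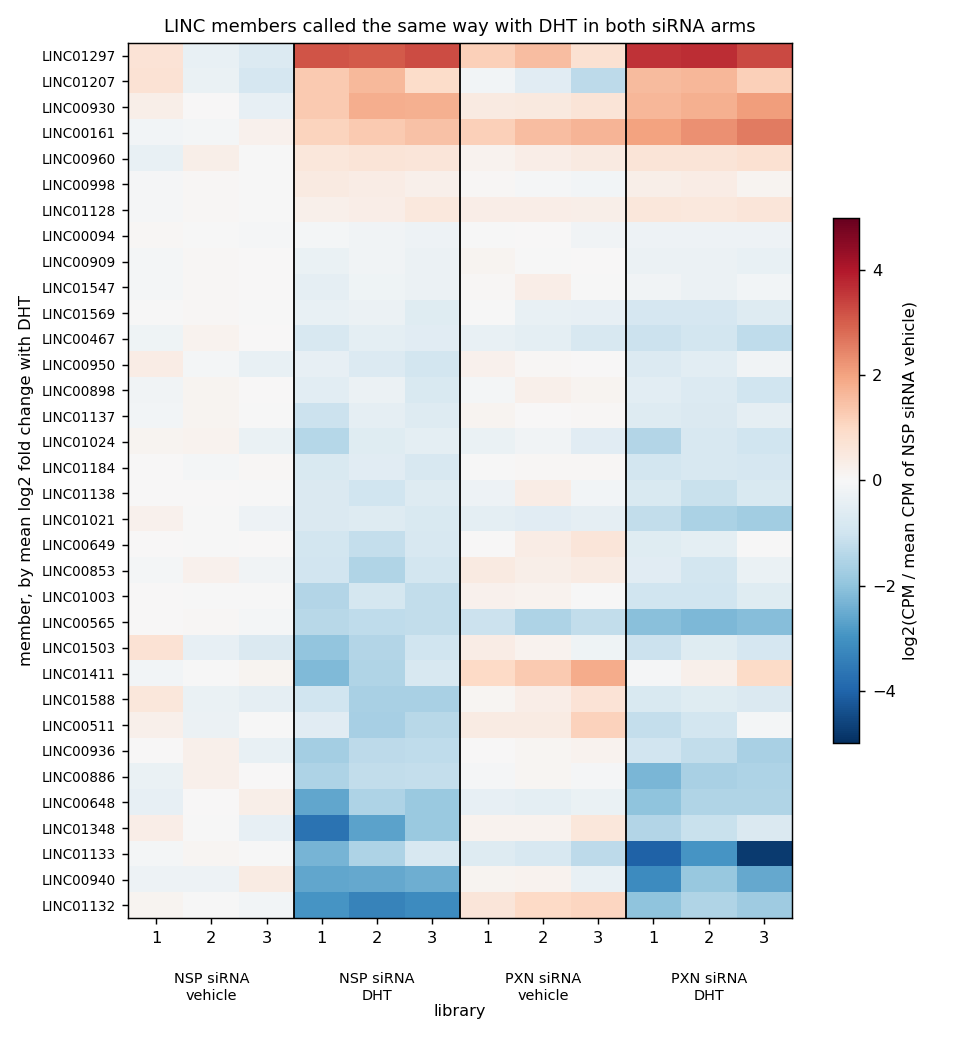
Heat map of the 34 members called in the same direction with DHT in both siRNA arms, ordered by their mean log2 fold change. Each column is 1 library, and colour is log2 of its CPM over the mean of NSP siRNA with vehicle. The 7 rising members at the top are red in all 6 DHT libraries, and the 27 falling ones are mostly blue there. LINC01411 and LINC01132 are red in the vehicle libraries under PXN siRNA.

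**Figure D2:**
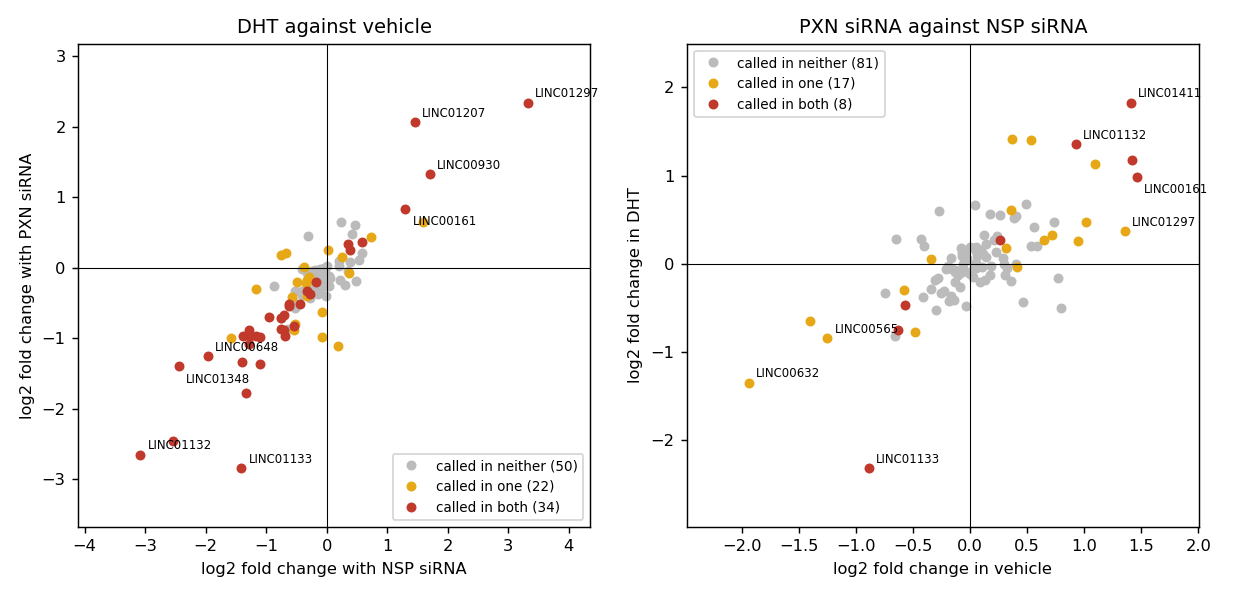
Log2 fold changes of the 106 members. Left, DHT against vehicle under NSP siRNA (horizontal) and PXN siRNA (vertical). Right, PXN siRNA against NSP siRNA in vehicle (horizontal) and in DHT (vertical). Colour gives the number of comparisons in which a member was called, 34 in both on the left and 8 on the right.

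The share of coding genes that fell also varied with their level, so members were set beside protein-coding genes of like level. When the coding genes were weighted to the members' spread over 4 bands of average log2 CPM, 25.3% fell and 14.5% rose with DHT under NSP siRNA, against 34.9% and 10.4% of members. Under PXN siRNA, 24.4% of coding genes fell and 13.5% rose, against 32.1% and 7.55% of members. The weighted median log2 fold change of the coding genes was -0.20 and -0.18 in the 2 arms. At the coding share, 26.8 members would have fallen under NSP siRNA where 37 did. In the band at 3 and above, 10 of 24 members fell under NSP siRNA (41.7%) and 18.6% of coding genes did. Under PXN siRNA the shares there were 25% and 16.9%. That band has no upper limit and holds 9476 coding genes, so levels within it were not matched. The highest member had a mean of 159 CPM, while KLK3 reached a mean of 8794 CPM in NSP siRNA with DHT. The weighted shares carry the same limit. In the band from 1 to 3 the shares were 37.8% and 29.7% under NSP siRNA and 40% and 28.4% under PXN siRNA. Between 0 and 1 they were 25% for members and 27% for coding genes in both arms. Among coding genes shorter than the median member, the weighted shares falling were 18.7% and 20.01%. These shares are descriptions, and no test was made of the difference between members and coding genes.

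**Figure D3:**
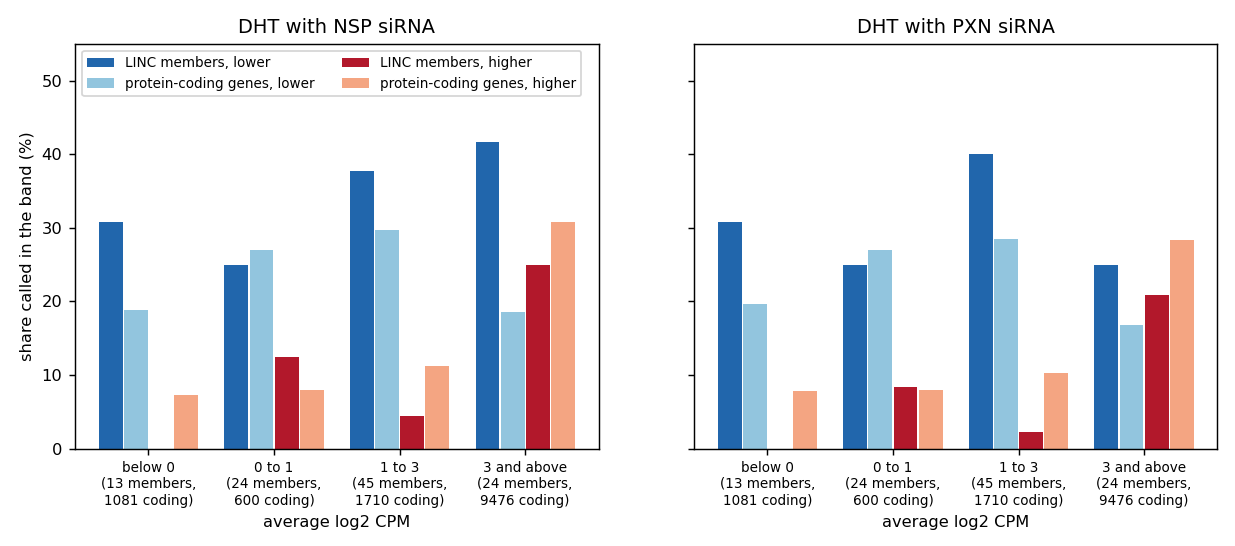
Share of genes called lower or higher with DHT (percent, vertical axis) in bands of average log2 CPM, for LINC members and tested protein-coding genes, under NSP siRNA (left) and PXN siRNA (right). Members fell more often than coding genes in 3 of the 4 bands in both arms. In the band at 3 and above, which has no upper limit, 41.7% of members fell under NSP siRNA beside 18.6% of coding genes.

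The steepest rise was that of LINC01297, a lincRNA on chromosome 14 near POTEG. Its level was 0.489, 0.233 and 0.188 CPM in NSP siRNA with vehicle and 2.70, 2.57 and 2.89 CPM with DHT. With PXN siRNA it was 0.691, 0.875 and 0.507 CPM in vehicle and 3.70, 3.90 and 2.95 CPM with DHT. All DHT libraries lay above all vehicle libraries. The log2 fold change was 3.33 ± 0.32 (SE, adjusted p = 1.7e-07) under NSP siRNA and 2.34 ± 0.24 (adjusted p = 5.2e-07) under PXN siRNA. In vehicle, PXN siRNA raised it by 1.36 ± 0.38 on the log2 scale (adjusted p = 0.017). Both of those groups lay under 1 CPM, and this call was not among the named calls checked under other settings. LINC01297 belongs to a locus with near-identical copies elsewhere in the genome, so reads may have been split between them.

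LINC00161, a short lincRNA at chr21:28539318-28540355, rose with DHT and with PXN siRNA. Its level was 8.15, 8.29 and 10.3 CPM in NSP siRNA with vehicle, 19.4, 22.2 and 24.9 CPM in NSP siRNA with DHT, 20.2, 25.7 and 28.7 CPM in PXN siRNA with vehicle, and 35.7, 43.4 and 53.4 CPM in PXN siRNA with DHT. Either treatment alone gave levels above all untreated libraries, and the group with both was above all others. DHT raised it by 1.30 ± 0.16 (log2 fold change ± SE, adjusted p = 4.1e-06) under NSP siRNA and 0.83 ± 0.14 under PXN siRNA (adjusted p = 0.00013). PXN siRNA raised it by 1.46 ± 0.16 in vehicle (adjusted p = 1.4e-05) and by 0.99 ± 0.14 in DHT (adjusted p = 0.00023). It was the only member of the 106 called higher in all 4 comparisons. Its interaction was called only when the replicate number was a block in the edgeR fit (adjusted p = 0.033).

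LINC00930, at 1.71, 1.40 and 1.05 CPM in NSP siRNA with vehicle, reached 3.43, 4.88 and 4.72 CPM with DHT. It went from 1.91, 1.93 and 2.17 to 4.42, 4.80 and 5.87 CPM under PXN siRNA. Vehicle and DHT libraries did not overlap in either arm, and the log2 fold changes were 1.70 ± 0.22 and 1.32 ± 0.19 (adjusted p = 5.9e-06 and 2.7e-05). Its nearest coding gene, FAM174B, lies 45401 bp away on the same strand and also rose in both arms, by 1.49 and 1.28 on the log2 scale.

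LINC01207, which RefSeq lists as SMIM31, was at 0.897, 0.426 and 0.301 CPM in NSP siRNA with vehicle and at 1.33, 1.66 and 1.01 CPM with DHT. Under PXN siRNA it was at 0.493, 0.365 and 0.217 CPM in vehicle and at 1.61, 1.73 and 1.24 CPM with DHT. The groups were separate in both arms, with log2 fold changes of 1.45 ± 0.38 (adjusted p = 0.0055) and 2.06 ± 0.37 (adjusted p = 0.00022). Smaller rises in both arms were measured for LINC00998 (SMIM30), by 0.35 and 0.33 on the log2 scale from about the level of 37.1 CPM, for LINC00960, by 0.58 and 0.37, and for LINC01128, by 0.39 and 0.25. The calls of LINC00960 and LINC01128 under PXN siRNA were lost without replicate 1 or 2 of PXN siRNA with vehicle or replicate 3 of PXN siRNA with DHT, and that of LINC01128 also without replicate 3 of PXN siRNA with vehicle. Both were also lost with upper-quartile scaling (adjusted p = 0.084 and 0.13). An exon of LINC00960 lies over ZNF717.

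LINC00571 was called under NSP siRNA, going from 0.326, 0.543 and 0.451 CPM to 1.29, 1.7 and 1.2 CPM, a log2 fold change of 1.59 ± 0.31 (adjusted p = 0.0005). Under PXN siRNA its rise was 0.65 ± 0.27 (adjusted p = 0.067), and the interaction did not separate the 2 responses (adjusted p = 0.53). LINC01296 was called only under NSP siRNA, with a log2 fold change of 0.74 ± 0.23 (adjusted p = 0.015) that was no longer called without replicate 3 of NSP siRNA with vehicle or without replicate 1 of NSP siRNA with DHT. LINC00493 (SMIM26) was called only under PXN siRNA, at 0.25 ± 0.08 (adjusted p = 0.027). That call was lost without replicate 1 or 2 of PXN siRNA with vehicle, without replicate 1 or 3 of PXN siRNA with DHT, without the filter on low counts, and with upper-quartile scaling (adjusted p = 0.14).

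Among the members that fell, LINC01132 fell furthest under NSP siRNA. It was at 1.47, 1.32 and 1.2 CPM in vehicle and at 0.171, 0.131 and 0.150 CPM with DHT. Under PXN siRNA it went from 2.01, 2.66 and 2.83 CPM to 0.328, 0.472 and 0.388 CPM. Each DHT library was below each vehicle library of its arm, and the log2 fold changes were -3.08 ± 0.36 (adjusted p = 1.9e-06) and -2.65 ± 0.27 (adjusted p = 3.4e-07). The level under NSP siRNA with DHT rested on 11 counts over 3 libraries.

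**Figure D4:**
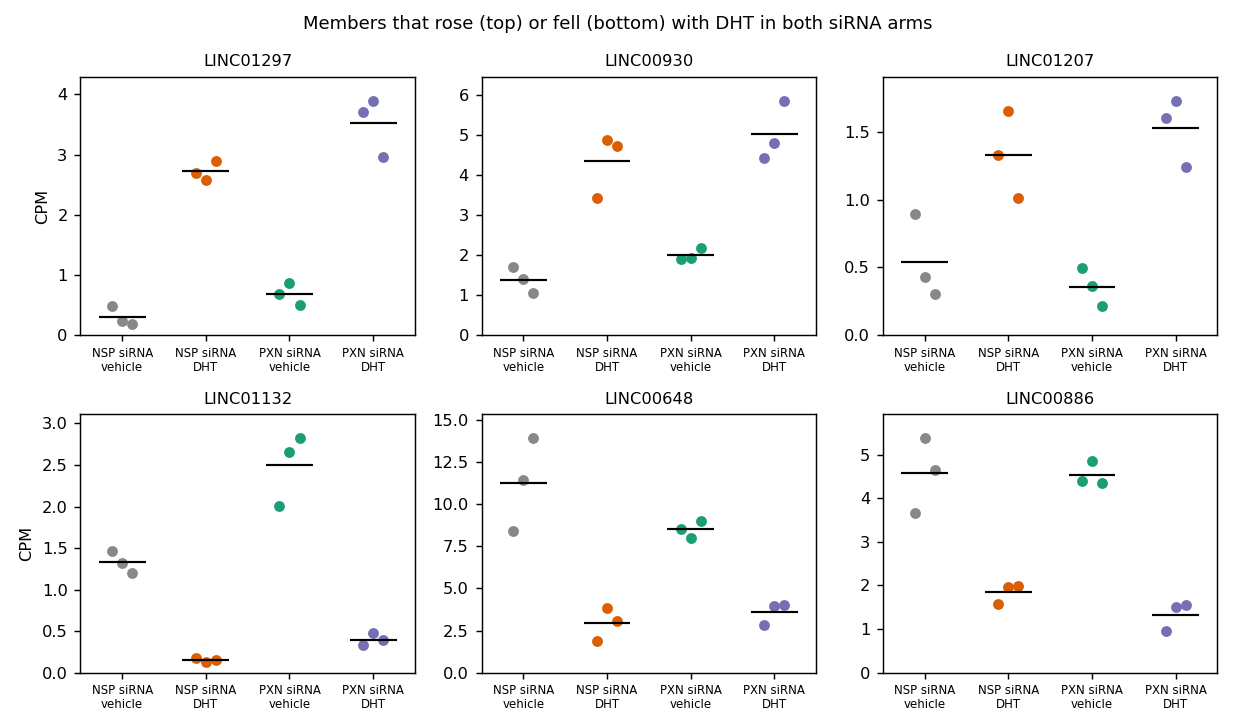
CPM of 6 members in each of the 12 libraries, by group; points are libraries and bars are group means. LINC01297, LINC00930 and LINC01207 lay higher in all DHT libraries than in the vehicle libraries of the same siRNA. LINC01132, LINC00648 and LINC00886 lay lower.

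LINC00940 was at 1.71, 1.74 and 2.71 CPM in NSP siRNA with vehicle and at 0.343, 0.349 and 0.375 CPM with DHT, a log2 fold change of -2.54 ± 0.34 (adjusted p = 9.5e-06). Under PXN siRNA it fell by 2.46 ± 0.32 (adjusted p = 8.2e-06), and the groups were separate in both arms. LINC00648 was at 8.4, 11.5 and 13.9 CPM in NSP siRNA with vehicle and 1.88, 3.83 and 3.07 CPM with DHT. It fell by 1.97 ± 0.21 under NSP siRNA (adjusted p = 8.7e-07) and by 1.26 ± 0.21 under PXN siRNA (adjusted p = 9.8e-05), with no overlap between vehicle and DHT in either arm. LINC00886 fell from 3.67, 5.39 and 4.66 CPM to 1.58, 1.96 and 1.99 CPM under NSP siRNA, and from 4.41, 4.85 and 4.35 CPM to 0.95, 1.5 and 1.55 CPM under PXN siRNA. Its log2 fold changes were -1.33 ± 0.20 and -1.78 ± 0.20 (adjusted p = 4.1e-05 and 1.8e-06), again with separate groups.

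LINC00936, now named ATP2B1-AS1, lies with an exon over ATP2B1, which encodes a plasma membrane calcium pump. It was at 2.93, 3.49 and 2.26 CPM in NSP siRNA with vehicle and 0.9, 1.18 and 1.2 CPM with DHT, and fell by 1.39 ± 0.24 and 1.34 ± 0.22 in the 2 arms (adjusted p = 0.00014 and 0.00011). Vehicle and DHT libraries did not overlap. ATP2B1 fell by 1.44 and 1.23 on the log2 scale. With strand unstated, reads of the 2 genes cannot be told apart. LINC00511, a transcript often described as raised in tumours, fell by 1.1 ± 0.35 (adjusted p = 0.019) and 1.37 ± 0.31 (adjusted p = 0.0017). LINC01348 fell by 2.45 ± 0.42 and 1.40 ± 0.33 on the log2 scale (adjusted p = 0.00016 and 0.0027), from the lowest total count of any member. LINC00632, whose locus also produces the circular RNA CDR1as and lies over CDR1, fell by 1.59 ± 0.37 under NSP siRNA (adjusted p = 0.002), while the change of -1.0 ± 0.47 under PXN siRNA did not pass (adjusted p = 0.10).

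The most abundant members changed little. LINC00963, described in the progression of prostate cancer to androgen independence, was at 137, 144 and 152 CPM in NSP siRNA with vehicle and 136, 149 and 152 CPM with DHT, which overlap. Its log2 fold change with DHT was 0.01 ± 0.08 in NSP siRNA and 0.02 ± 0.08 in PXN siRNA. LINC00665 rose by 0.25 ± 0.06 under NSP siRNA (adjusted p = 0.0054). LINC00094, LINC01278 and LINC00667 fell there by 0.18 ± 0.06, 0.29 ± 0.08 and 0.33 ± 0.09 (adjusted p = 0.033, 0.0054 and 0.0051). Summed over the 106 members, the level was 976 to 1000 CPM in NSP siRNA with vehicle and 900 to 959 CPM with DHT, and 1014 to 1038 CPM in PXN siRNA with vehicle and 942 to 995 CPM with DHT. DHT libraries lay below vehicle libraries in both arms.

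Of the 11 members that RefSeq lists as protein coding, DHT raised 3 (27.3%) and lowered 2 (18.2%) under NSP siRNA, shares near the 21.6% and 18.9% of all tested genes. Under PXN siRNA it raised 3 and lowered 3, where 20.1% and 17.9% of all tested genes were called. With 11 members these counts are small, and their difference from the other members was not tested. LINC00950, counted here only as a synonym of TMEM8B, which has its own row, was among those lowered in both arms. LINC00116 (MTLN) was at 14.2, 14.2 and 15.6 CPM in NSP siRNA with vehicle, and at 19.8, 20.8 and 16.6 CPM with DHT. It was at 18.9, 20.5 and 19.3 CPM in PXN siRNA with vehicle and at 19.7, 19 and 16.9 CPM with DHT. All 9 treated libraries were above the 3 untreated ones, and the groups that had DHT, PXN siRNA or both overlapped. DHT raised it by 0.37 ± 0.10 under NSP siRNA (adjusted p = 0.0052), and PXN siRNA raised it by 0.41 ± 0.10 in vehicle (adjusted p = 0.0061). The interaction was -0.45 ± 0.14, with the smallest p of all members (unadjusted p = 0.0038, adjusted p = 0.34). LINC01420 (NBDY) stayed between 21.5 and 25.9 CPM in all 12 libraries and was called in no comparison. Of the 38 members over no other gene body, DHT raised 3 and lowered 13 under NSP siRNA, and raised 1 and lowered 16 under PXN siRNA.

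Knockdown of paxillin moved fewer members than DHT did, without a prevailing direction. In vehicle, PXN siRNA raised 13 and lowered 8 of the 106, where 10.7% of all tested genes rose and 9.78% fell. The median log2 fold change was 0.04, and the groups were separate for 38 members, against 35.9% of all tested genes. In DHT it raised 8 and lowered 4, where 6.34% of all tested genes rose and 7.00% fell, with a median of -0.00 and separate groups for 31 members, against 32.1% of all tested genes. Coding genes of like level rose in 10.2% and fell in 6.76% of cases in vehicle, against 12.3% and 7.55% of members. In DHT, they rose in 6.99% and fell in 4.85%, against 7.55% and 3.77% of members. Among coding genes shorter than the median member, the share lower in vehicle was 3.91%. Called with PXN siRNA in both vehicle and DHT were 5 higher and 3 lower members, where 637 and 700 of 16115 tested genes were. The sign was the same for 74 of 106 members (69.8%, beside 72.3% of all tested genes). The rising count in vehicle was 9 to 14 when each library was left out in turn, and the other 3 counts moved by over 1.5 times without certain libraries. The falling count in vehicle was 5 without replicate 2 of NSP siRNA with vehicle and without replicate 2 or 3 of PXN siRNA with vehicle. The rising count in DHT was 3 without replicate 1 or 2 of NSP siRNA with DHT or replicate 2 or 3 of PXN siRNA with DHT, and 4 without replicate 2 of either vehicle group. The falling count in DHT was 2 without replicate 2 of NSP siRNA with DHT or replicate 3 of PXN siRNA with DHT.

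LINC01411, at 2.69, 2.95 and 3.27 CPM in NSP siRNA with vehicle, was at 5.89, 7.26 and 10.9 CPM in PXN siRNA with vehicle. With DHT it was at 0.643, 1.05 and 1.69 CPM under NSP siRNA and at 2.88, 3.58 and 5.83 CPM under PXN siRNA. The siRNA groups were separate in both treatments, and PXN siRNA with DHT overlapped NSP siRNA with vehicle. PXN siRNA raised it by 1.41 ± 0.28 in vehicle (adjusted p = 0.0018) and by 1.83 ± 0.33 in DHT (adjusted p = 0.0014), and DHT lowered it by 1.39 ± 0.35 and 0.97 ± 0.26 (adjusted p = 0.0037 and 0.0066). LINC01132 was called in the same directions, with rises of 0.92 ± 0.23 and 1.35 ± 0.42 with PXN siRNA (adjusted p = 0.0095 and 0.041). Unlike for LINC01411, all its libraries of PXN siRNA with DHT lay below those of NSP siRNA with vehicle. The rise of LINC01132 in vehicle was not called without replicate 3 of PXN siRNA with vehicle. These 2 members were the only ones lower with DHT in both arms and higher with PXN siRNA in both treatments.

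LINC01133, a transcript reported to curb epithelial-mesenchymal transition in other tumours, had the opposite response to PXN siRNA. Its level was 3.99, 4.61 and 4.21 CPM in NSP siRNA with vehicle, 0.857, 1.48 and 2.44 CPM with DHT, 2.76, 2.44 and 1.74 CPM in PXN siRNA with vehicle and 0.262, 0.551 and 0.155 CPM with DHT. The untreated libraries were highest and those with both treatments lowest, with no overlap of either with the other groups. DHT lowered it by 1.41 ± 0.30 under NSP siRNA (adjusted p = 0.0011) and by 2.84 ± 0.39 under PXN siRNA (adjusted p = 1.7e-05). PXN siRNA lowered it by 0.89 ± 0.28 in vehicle (adjusted p = 0.034) and by 2.32 ± 0.42 in DHT (adjusted p = 0.0014). The vehicle call was lost without replicate 2 or 3 of either vehicle group. The interaction was -1.43 ± 0.52 (unadjusted p = 0.013, adjusted p = 0.44).

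LINC00467 was the other member lower in all 4 comparisons. It was at 19.1, 25.4 and 22.7 CPM in NSP siRNA with vehicle, 12.9, 16 and 15.2 CPM with DHT, 17.2, 15.9 and 12.7 CPM in PXN siRNA with vehicle and 10.6, 12.0 and 9.32 CPM with DHT. Untreated libraries were above all others, and those with both treatments were below all others. PXN siRNA lowered it by 0.56 ± 0.13 in vehicle (adjusted p = 0.0046) and by 0.47 ± 0.13 in DHT (adjusted p = 0.027), the latter not called without replicate 2 or 3 of NSP siRNA with DHT or replicate 1 or 3 of PXN siRNA with DHT. LINC00641, which lies 2236 bp from HNRNPC, fell with PXN siRNA from 9.54, 9.22 and 9.96 CPM to 7.07, 6.05 and 5.40 CPM in vehicle. In DHT it fell from 8.31, 8.19 and 8.74 CPM to 5.6, 4.37 and 4.93 CPM. The siRNA groups were separate in both treatments, with changes of -0.63 ± 0.13 and -0.76 ± 0.13 (adjusted p = 0.0021 and 0.001), and no call with DHT in either arm.

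**Figure D5:**
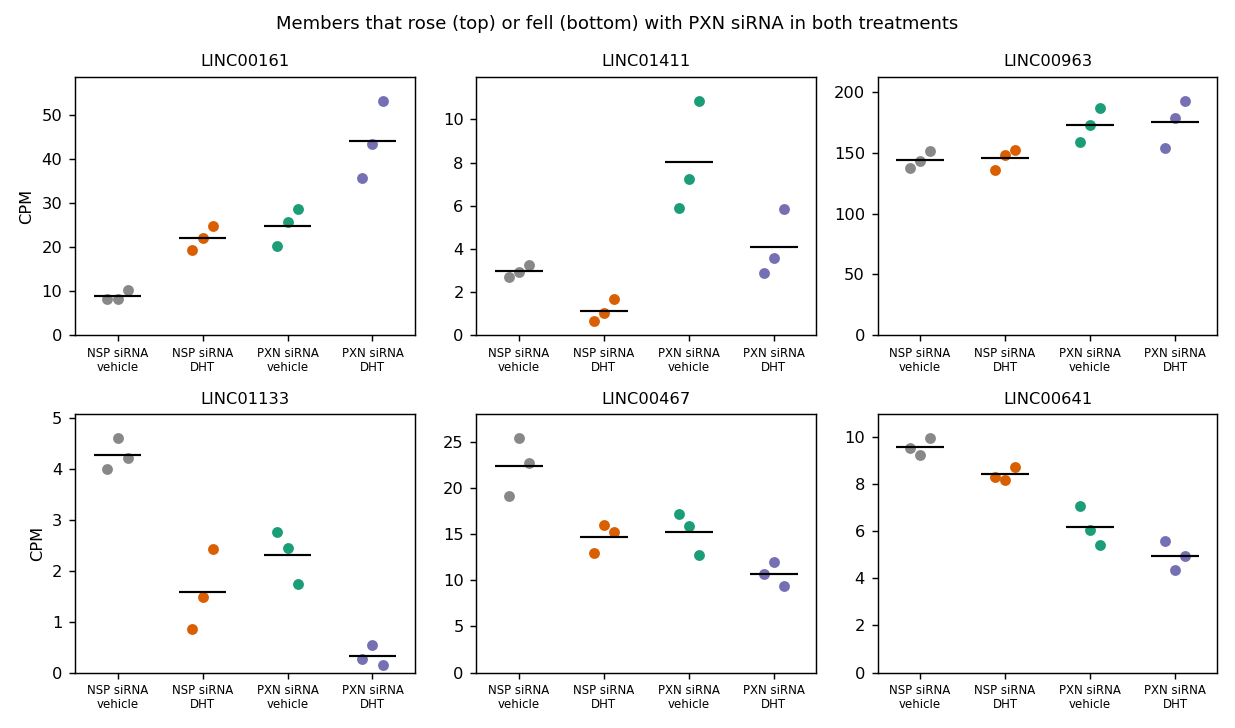
CPM of 6 members called in the same direction with PXN siRNA in both treatments, in each of the 12 libraries; points are libraries and bars are group means. LINC00161, LINC01411 and LINC00963 lay higher with PXN siRNA, and LINC01133, LINC00467 and LINC00641 lower. In LINC00161, LINC01133 and LINC00467 the group with both treatments stands apart from the other 3.

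LINC00963, the highest member, was at 159, 173 and 187 CPM in PXN siRNA with vehicle, above all 3 libraries of NSP siRNA with vehicle. In DHT it was at 154, 179 and 193 CPM, again above NSP siRNA. The rises were 0.26 ± 0.08 and 0.27 ± 0.08 on the log2 scale (adjusted p = 0.031 and 0.036). The call in DHT was lost without replicate 1 or 2 of NSP siRNA with DHT, replicate 2 of PXN siRNA with vehicle, or replicate 2 or 3 of PXN siRNA with DHT. LINC01605 rose by 1.42 ± 0.36 and 1.18 ± 0.36 (adjusted p = 0.0092 and 0.039), the latter not called without replicate 2 of NSP siRNA with vehicle, replicate 1 or 2 of NSP siRNA with DHT, or any replicate of PXN siRNA with DHT, nor with the compared groups fitted alone.

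Other members were called with PXN siRNA in either vehicle or DHT. Their interactions did not pass in edgeR, with or without the replicate number as a block, so their changes are not shown to differ between the treatments. LINC00632 fell from 3.42, 1.78 and 1.92 CPM to 0.921, 0.511 and 0.326 CPM in vehicle, with separate groups and a change of -1.93 ± 0.37 (adjusted p = 0.0014). In DHT the change was -1.35 ± 0.46 (adjusted p = 0.061). LINC00565 (SWINGN) fell by 1.25 ± 0.26 in vehicle (adjusted p = 0.0026), with a change of -0.84 ± 0.31 in DHT (adjusted p = 0.082). LINC00899 fell by 0.58 ± 0.14 in vehicle (adjusted p = 0.0074), with -0.29 ± 0.14 in DHT. LINC01354 rose by 1.02 ± 0.26 in vehicle (adjusted p = 0.0093), with 0.47 ± 0.26 in DHT. Its neighbour TARBP1 was called higher with PXN siRNA in both treatments, by 0.34 in vehicle and 0.35 in DHT. LINC00152 (CYTOR), raised in many tumours, rose by 0.94 ± 0.24 in vehicle (adjusted p = 0.0094), a call lost without replicate 3 of PXN siRNA with vehicle, with 0.26 ± 0.23 in DHT. It has a near-identical copy, MIR4435-2HG, with which reads can be shared. In DHT, LINC00992 rose from 1.07, 1.18 and 1.05 CPM to 2.16, 3.31 and 3.30 CPM, a log2 fold change of 1.40 ± 0.26 (adjusted p = 0.0015), with 0.54 ± 0.23 in vehicle (adjusted p = 0.11). LINC01021 (PURPL, a p53-induced transcript) fell there by 0.77 ± 0.21 (adjusted p = 0.02), a call lost without replicate 2 of NSP siRNA with DHT or replicate 2 or 3 of PXN siRNA with DHT. In vehicle its change was -0.48 ± 0.18 (adjusted p = 0.073), with separate groups.

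Weaker calls in vehicle were those of LINC00578, which rose by 1.1 ± 0.35, LINC00863, by 0.72 ± 0.25, and LINC01619 and LINC01578 (CHASERR), which fell by 1.40 ± 0.40 and 0.34 ± 0.12. Their adjusted p-values were 0.035, 0.049, 0.018 and 0.0497. All 4 were lost without replicate 2 of NSP siRNA with vehicle. LINC00578 was also lost without replicate 3 of that group or replicate 1 of PXN siRNA with vehicle, and LINC01619 without replicate 2 or 3 of the latter. LINC00863 held in 2 of the 12 omissions of a library, those of replicate 1 of PXN siRNA with vehicle and replicate 3 of PXN siRNA with DHT, and LINC01578 in 2, those of replicates 1 and 2 of NSP siRNA with DHT. The call of LINC01578 was also lost with RLE or upper-quartile scaling, those of LINC00863 and LINC01578 without the filter on low counts, that of LINC00863 by DESeq2 and limma-voom, and those of LINC00578 and LINC00863 when the compared groups were fitted alone. LINC01619 lies with an exon over BTG1, which was also called lower in vehicle. In DHT, LINC00649 rose by 0.62 ± 0.19 (adjusted p = 0.039), a call lost without replicate 2 of either vehicle group, any replicate of NSP siRNA with DHT, or replicate 2 or 3 of PXN siRNA with DHT, and by limma-voom or with the compared groups alone.

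Whether paxillin knockdown altered the DHT response was tested by the interaction term. At the same threshold 0 of the 106 members were called by edgeR, 0 by DESeq2 and 0 by limma-voom, where 0.0496% of all tested genes were called. At an unadjusted p under 0.05 these tools had 11, 9 and 8 members, where edgeR had 1435 of 16115 tested genes. With the replicate number as a block, 1 member was called, LINC00161 (adjusted p = 0.033). The DHT responses of the members in the 2 arms were therefore not shown to differ in the fit without the block.

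Of 60 members with a tested coding gene within 100 kb, 20 fell with DHT under NSP siRNA, and of their neighbours 4 fell, 4 rose and 12 were not called. Of the neighbours of the 35 members not called there, 7 fell, 4 rose and 24 were not called, and of those of the 5 rising members 3 fell and 1 rose. Over all tested protein-coding genes 20.5% fell and 25.2% rose in that comparison. Under PXN siRNA, 19 members fell, with 4 neighbours lower, 1 higher and 14 not called, where 19.1% of tested protein-coding genes fell and 23.3% rose. Nothing about the neighbours is read from these counts. SAMD11, 64482 bp from the rising LINC01128, fell by 0.45 on the log2 scale under NSP siRNA. In all, 42 of the 106 members were called in none of the 4 comparisons.

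The RNA exosome breaks down many noncoding transcripts in the nucleus, so a list of its subunits, cofactors and adaptors was set beside the members. Of 19 tested genes, 5 rose (26.3%) and 2 fell (10.5%) with DHT under NSP siRNA, beside 21.6% and 18.9% of all tested genes, with a median log2 fold change of -0.03. EXOSC5 and EXOSC4, core subunits, rose by 0.57 ± 0.12 and 0.50 ± 0.08 (adjusted p = 0.0013 and 7.6e-05), and RBM7 and SKIV2L2, an adaptor and a helicase that deliver RNA to the exosome, fell by 0.41 ± 0.13 and 0.40 ± 0.07 (adjusted p = 0.016 and 0.00025). Under PXN siRNA 3 rose and 3 fell with DHT (20.1% and 17.9% of all tested genes). There EXOSC5 and EXOSC4 were not called (0.15 and 0.17, edgeR adjusted p = 0.37 and 0.098), while RBM7 and SKIV2L2 again fell. EXOSC3 and ZCCHC7 rose in both arms, by 0.35 and 0.44 under NSP siRNA and by 0.38 and 0.35 under PXN siRNA. PXN siRNA raised 2 and lowered 2 in vehicle (10.7% and 9.78% of all tested genes), and raised 0 and lowered 3 in DHT (6.34% and 7.00%). The part of these changes in the members' levels was not tested.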

How the data were processed

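Counts of 56269 gene symbols in 12 libraries were deposited by the authors unscaled, as whole numbers. The submitters' processing notes name Trimmomatic 0.36, STAR 2.5.2b, Subread 1.5.0p3 (featureCounts) and GRCh38; annotation release and strand setting: not given in the sources used here. Per the labels, libraries were made with a stranded mRNA kit.

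In R 4.3.3, edgeR 4.0.16 was used with filterByExpr (minimum count 10, minimum total 15), TMM scaling and a quasi-likelihood fit of 4 group means to all 12 libraries. p-values were adjusted by Benjamini-Hochberg over 16115 genes and called under 0.05. SE came from the F statistic. Levels are CPM on TMM-scaled totals. The pipeline was tested on simulated data. Bands of average log2 CPM were split at 0, 1 and 3. Named members were, per comparison and direction, the up to 8 largest called changes reaching 1 CPM as a mean of either group, the 6 highest members and those RefSeq lists as coding. The members and lists were chosen with earlier results of these data known. Symbols were matched to GENCODE 29 and RefSeq. Replicates differed beyond sampling noise (chi-square per degree of freedom 6.16 to 18.6). Also tried were DESeq2 1.42.0, limma-voom (limma 3.58.1), scaling by RLE or upper quartile, no low-count filter, a replicate block, fits to the compared groups alone, a threshold of 0.01, other count minimums, and omission of each library.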

Additional observations from a re-analysis of the deposited data

How the results depend on the processing

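Of 58 named calls, 42 held under all 20 settings, 16 were lost under at least 1, and 0 reversed. Restricting to the 38 members over no other gene body leaves fewer members, with 3 higher and 13 lower with DHT under NSP siRNA, 1 and 16 under PXN siRNA, 4 and 3 with PXN siRNA in vehicle, and 4 and 2 in DHT. Without the 14 members that their highest group helped over the threshold, 92 remained. Of these, 10 were higher and 32 lower with DHT under NSP siRNA, and 7 and 28 under PXN siRNA. With PXN siRNA the counts were 11 and 6 in vehicle, and 6 and 4 in DHT. An adjusted p under 0.01 gave 23 lower with DHT under NSP siRNA, 5 higher under PXN siRNA, 7 higher and 5 lower with PXN siRNA in vehicle, and 3 and 2 in DHT. Upper-quartile scaling gave 5 higher with DHT under PXN siRNA, and moved all tested genes from 3481 higher and 3053 lower to 2707 and 3896 under NSP siRNA, and from 3234 and 2886 to 2262 and 3935 under PXN siRNA; the members' counts were then 11 and 42, and 5 and 40. For PXN siRNA in DHT, limma-voom, the compared groups alone and a minimum of 40 counts per library each gave 5 higher, and that minimum gave 5 lower in vehicle. The share of short coding genes of like level lower with PXN siRNA in vehicle was 3.91%. The cause of these shifts was not tested, apart from the smaller sets and stricter threshold themselves.

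Leaving out 1 library gave 10 to 11 higher and 27 to 38 lower with DHT under NSP siRNA, 5 to 8 and 27 to 35 under PXN siRNA, 9 to 14 and 5 to 8 with PXN siRNA in vehicle, and 3 to 9 and 2 to 5 in DHT. The labels share replicate numbers across groups. Deviations from group means over 12242 genes correlated above 0.1 in 16 of 18 same-number pairs (0.080 to 0.438), and over the 10701 genes at 5 CPM or more in 18 of 18 (0.144 to 0.482); all 12 libraries correlated best with their own number. The replicate block kept all 58 named calls and gave 13 higher and 38 lower, 9 and 40, 16 and 12, and 10 and 6 in the 4 comparisons, with 1 member called for the interaction. Members under 1 CPM rest on few counts, which limits small changes there.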

Other observations

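LINC rows under the count threshold are given here; those named were chosen after their values were seen. Of 861 such rows, 52 passed the filter and 809 were not tested. DHT raised 4 and lowered 7 of the 52 under NSP siRNA, and raised 3 and lowered 9 under PXN siRNA (edgeR, adjusted p under 0.05), where 21.6% and 18.9%, and 20.1% and 17.9%, of all tested genes were called. LINC00160 had 0 counts over the 3 libraries of NSP siRNA with vehicle and 15, 30 and 38 with DHT, at least 24.2-fold higher against a floor of 3 counts over the group, and 1, 0 and 0 against 34, 26 and 26 counts under PXN siRNA. LINC01443 had 1, 0 and 0 counts in NSP siRNA with vehicle and 19, 20 and 10 with DHT, and 0 counts against 37, 24 and 26 under PXN siRNA, at least 30.1-fold higher there. No vehicle library overlapped a DHT library for either. LINC00593 and LINC00689 fell in both arms, by 2.27 ± 0.59 and 1.97 ± 0.46 and by 1.89 ± 0.56 and 2.06 ± 0.51 on the log2 scale.

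Long noncoding RNAs that once carried a LINC number and now have a name of their own were counted separately, and those named were chosen after their values were seen. Of 33 with at least 240 counts, DHT raised 8 (24.2%) and lowered 6 (18.2%) under NSP siRNA, near the 21.6% and 18.9% of all tested genes. Under PXN siRNA it raised 5 (15.2%) and lowered 5 (15.2%), where 20.1% and 17.9% of all tested genes were called. The difference of these 33 from the members was not tested. MALAT1, a nuclear speckle RNA, fell from 214 ± 31.3 to 123 ± 17.0 CPM (SD, n = 3) with DHT under NSP siRNA (log2 fold change -0.79, edgeR adjusted p = 5.4e-05), and by 0.37 on the log2 scale under PXN siRNA (adjusted p = 0.023). With PXN siRNA in vehicle it fell to 140 ± 6.45 CPM (adjusted p = 0.002), while the change in DHT was -0.19 (adjusted p = 0.34). NORAD, a decoy for Pumilio proteins, rose from 278 ± 19.2 to 327 ± 11 CPM with DHT under NSP siRNA (adjusted p = 0.0071). PCAT18 rose with DHT from a mean of 0.0272 to 1.40 CPM under NSP siRNA and from 0.0824 to 1.76 CPM under PXN siRNA. Its mean in NSP siRNA with vehicle lay below the floor of 3 counts over the group, 0.0464 CPM. DUBR rose by 1.28 and 1.30 on the log2 scale in the 2 arms, and CRNDE fell by 0.98 and 1.02. MIR4435-2HG, the near-identical copy of CYTOR, rose with PXN siRNA in both treatments, by 0.89 and 0.81.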
